A study of Mus musculus with 4 samples.

Results

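The LIN28, IGF2BP and MYC growth regulators described here are 10 genes chosen by name, out of 24347 gene rows in each sample. They are *Lin28a* and *Lin28b*, the let-7-responsive oncofetal genes *Hmga2*, *Igf2bp1*, *Igf2bp2*, *Igf2bp3* and *Trim71*, and the MYC family genes *Myc*, *Mycn* and *Mycl1*, the last of which is listed under its current symbol *Mycl*. All 10 had a row, and all 10 passed the filter on low values in all 4 samples. RNA-seq had been carried out on embryoid bodies (EBs), the floating aggregates formed by mESCs when the self-renewal factor LIF is withdrawn, at day 3 in serum medium. The WT group was made from unedited mESCs of strain 129/Ola, and the promoter KO group from mESCs of the same strain in which CRISPR/Cas9 had removed the promoter of *Gm11549*, the gene of the micropeptide NEMEP. There were 2 samples per genotype, numbered 1 and 2, and neither group received a further treatment. Edited lines had been raised from single cells, and the sample labels do not say whether the promoter KO samples came from different clones, so the p-values below measure only the spread between these samples.

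LIN28 proteins bind the precursors of the let-7 miRNAs and block their maturation, and let-7 in turn represses mRNAs with matching sites in the 3′ UTR, among them *Lin28a*, *Lin28b*, *Hmga2*, the *Igf2bp* genes and *Trim71*. IGF2BP proteins bind and stabilize mRNAs, including that of *Myc*, and MYC proteins activate genes of ribosome production, nucleotide synthesis and cell growth. All of these genes are known for their activity in the early embryo, where LIN28 is high and mature let-7 is low in pluripotent cells.

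The mature let-7 miRNAs are shown because their seed, bases 2 to 8 in capitals, defines the sites counted in the members. RefSeq (GRCm38.p6) lists 9 mouse let-7 and miR-98 5p sequences, and all 9 share this seed. A set of 4 that differ outside it is printed 5′ to 3′.
let-7a-5p: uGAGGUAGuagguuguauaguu
let-7e-5p: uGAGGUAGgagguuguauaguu
let-7g-5p: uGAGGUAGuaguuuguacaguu
miR-98-5p: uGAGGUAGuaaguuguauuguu

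The reverse complement of the seed, CTACCTC in DNA letters, was searched on the transcript strand of the longest annotated 3′ UTR of each member (GENCODE M21, GRCm38). *Hmga2*, *Lin28b*, *Igf2bp1* and *Trim71* held 4 matches each, *Lin28a* held 2, and *Igf2bp2* and *Igf2bp3* held 1 each. No match was found in *Myc*, *Mycn* or *Mycl*, whose 3′ UTRs have 466, 913 and 1970 bases, against 3014 bases in *Hmga2* and 6337 in *Igf2bp1*. Of 21005 protein-coding genes with an annotated 3′ UTR, 9.02% held at least 1 match, and 32 genes (0.152%) held at least 3. Within the initial 1000 bases of the 3′ UTR, the share was 6.51% of 10232 genes, and there *Hmga2*, *Lin28a*, *Lin28b* and *Igf2bp3* held 1 match, *Trim71* held 2, and *Igf2bp1*, *Igf2bp2* and *Mycl* held 0, while *Myc* and *Mycn* have shorter 3′ UTRs. These genes had been chosen as parts of the let-7 axis, so the counts are a description.

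The matches of *Hmga2* and *Igf2bp2*, the members that passed the test below, and those of *Lin28a*, the most abundant member, are printed with 15 bases before and 8 after the match, which is in capitals. All lie on the minus strand of GRCm38. The *Hmga2* windows are at chr10:120364217-120364246, chr10:120362980-120363009, chr10:120362542-120362571 and chr10:120361684-120361713, the *Igf2bp2* window is at chr16:22059466-22059495, and the *Lin28a* windows are at chr4:134005182-134005211 and chr4:134004544-134004573.
*Hmga2* match 1: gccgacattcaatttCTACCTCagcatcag
*Hmga2* match 2: ccccactcctcaataCTACCTCtgaatgct
*Hmga2* match 3: ctgatttgcaaggaaCTACCTCcacacttc
*Hmga2* match 4: aatcaaaacacactaCTACCTCttaagtcc
*Igf2bp2* match 1: acacacaaataaaagCTACCTCaggtgttt
*Lin28a* match 1: gcacagcctgttgaaCTACCTCatttttgc
*Lin28a* match 2: gagatcgccacaaacCTACCTCactgtgtt
In these windows an A, known to favour let-7 binding, directly follows the match in *Hmga2* match 1, in *Igf2bp2* and in both *Lin28a* matches. The mature miRNAs themselves were not measured by these libraries, and the 12 rows of let-7 and miR-98 hairpin genes were listed at 0 in all samples.

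Expression values were FPKM (fragments scaled to transcript length and to the number of mapped fragments). They are on a per-length scale, so levels of different genes can be compared. The FPKM of a sample summed to between 673951 and 696928, and the depth, estimated from the lowest values, came to some 24500000 (WT 1), 21700000 (WT 2), 21500000 (promoter KO 1) and 20100000 (promoter KO 2) fragments. At these depths the member values stand for about 752 fragments (*Hmga2* in promoter KO 2) to 16000 fragments (*Lin28a* in WT 1). The targeted gene *Gm11549* had 0.750 FPKM (WT 1) and 0.522 FPKM (WT 2), while promoter KO 1 was listed at 0 and promoter KO 2 at 0.0659 FPKM. This order fits the labels, and the gene was below the filter and had no test.

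Differences between genotypes were tested with limma on log2(FPKM + 1) over 11941 genes, and p-values were adjusted over all of them by the Benjamini-Hochberg method. A gene was called at an adjusted p under 0.05. Of the 10 members, 2 were called lower in promoter KO EBs, where 1.89% of all tested genes were (226 genes), and 0 were called higher, where 1.68% were (201 genes). At an unadjusted p under 0.05, 3 members were lower and 2 were higher, against 15.6% and 15% of all tested genes. The promoter KO samples were both under the WT range in 3 members (*Hmga2*, *Igf2bp2* and *Mycl*) and both over it in 3 (*Igf2bp1*, *Myc* and *Mycn*), shares close to the 32.4% and 32.9% of all tested genes. The groups overlapped in the other 4, *Lin28a*, *Lin28b*, *Igf2bp3* and *Trim71*. The median log2 fold change was 0.00 over the members and 0.00 over all tested genes. For a single gene, exact permutation of 2 samples against 2 has 0.333 as its smallest p, so each call leans on the variance pooled over genes by limma. In bulk EBs, fewer cells of a type and less RNA per cell cannot be told apart.

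**Figure D1:**
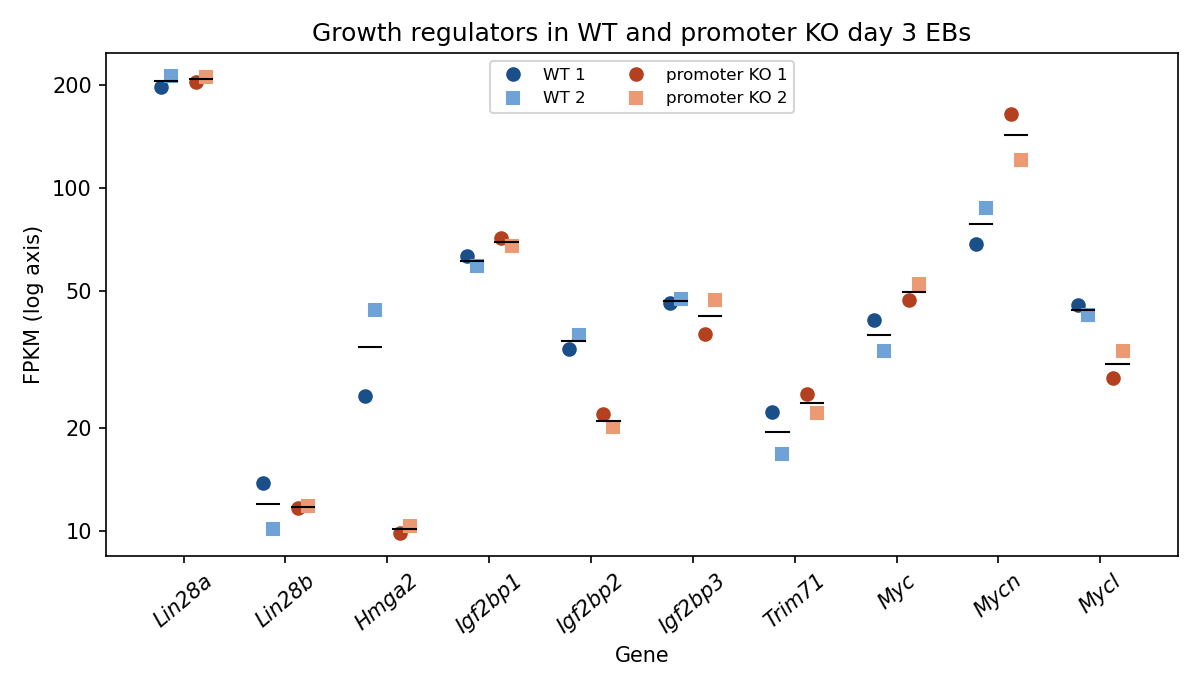
FPKM of the 10 members (log axis) in each of the 4 samples, with circles for replicate 1, squares for replicate 2 and a black line at the mean of each genotype. *Hmga2* and *Igf2bp2* lie lower in both promoter KO samples than in both WT samples, and the points of *Lin28a* lie close together.

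*Lin28a*, the family member that prevails in pluripotent cells, was at 198 FPKM (WT 1), 212 (WT 2), 203 (promoter KO 1) and 211 (promoter KO 2). Both promoter KO values lay between the WT samples, and the gene was more abundant than 96.2% of the tested genes. Its log2 fold change was 0.02 (standard error 0.08, 95% interval −0.17 to 0.21, limma with Benjamini-Hochberg adjusted p = 0.902). *Lin28b*, its paralog, had 13.8 FPKM in WT 1 and 10.1 FPKM in WT 2, against 11.7 and 11.8 FPKM in promoter KO EBs. Here too the promoter KO values fell inside the range of the WT values, and the log2 fold change was −0.01 with a wider interval, from −0.40 to 0.38 (limma, adjusted p = 0.970). The signs of both fold changes turned with the scaling of the samples, and neither gene passed the test under any setting tried.

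*Lin28a* outnumbered *Lin28b* in every sample, by 14.3-fold (WT 1), 20.98-fold (WT 2), 17.4-fold (promoter KO 1) and 17.9-fold (promoter KO 2). *Lin28b* thus made up 6.52% and 4.55% of the summed LIN28 FPKM in WT and 5.42% and 5.29% in promoter KO EBs. The spread between the WT samples (SD 1.39 percentage points) exceeded the difference between the genotype means of −0.18 points (exact two-sided permutation test, p = 1.000). *Lin28a* shares at least 200 bases of at least 95% identity with the overlapping noncoding gene *Gm13061*, so some of its reads may be uncertain, and how many was not measured.

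LIN28 acts on a pathway whose proteins make, load and decay miRNAs. Of 20 such genes 18 were tested, and limma called 0 lower and 0 higher at an adjusted p under 0.05. At an unadjusted p under 0.05, 2 were lower (11.1%, against 15.6% of all tested genes) and 7 were higher (38.9%, against 15%), and the median log2 fold change was 0.13, against 0.00 over all tested genes. Their most abundant members were *Hnrnpa1*, an RNA-binding protein that acts on some miRNA precursors, and *Ddx5*, a helicase of the Drosha complex. *Hnrnpa1* had 557 and 656 FPKM in WT EBs against 534 and 549 FPKM in promoter KO EBs, a log2 fold change of −0.16 (limma, adjusted p = 0.305) that was −0.04 without WT 2 and −0.28 without WT 1. *Ddx5* had 217 and 222 FPKM in WT EBs against 255.5 and 244 FPKM in promoter KO EBs, with a log2 fold change of 0.18 (limma, adjusted p = 0.152). Neither gene passed the test, although the groups of both were separate, and their values are uncertain because *Hnrnpa1* shares near-identical sequence with 9 other annotated genes and *Ddx5* with 1.

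*Hmga2* encodes an architectural chromatin protein of embryonic cells and is a classic let-7 target. It lies at chr10:120361275-120476469 on the minus strand (GRCm38), and its 4 seed matches are printed above. In the annotation, 2 antisense genes overlap it on the opposite strand and *Mir763* on the same strand. Whether reads were counted by strand is not given in the sources used here. The level of *Hmga2* was 24.7 FPKM (WT 1), 44.2 (WT 2), 9.85 (promoter KO 1) and 10.4 (promoter KO 2). Its promoter KO samples were nearly equal and were both below the WT samples, which differed from each other. The mean fell from 34.4 ± 13.8 FPKM among WT samples to 10.1 ± 0.356 FPKM among promoter KO samples (SD, n = 2 each), a WT mean 3.41-fold that of promoter KO. The log2 fold change was −1.62 (standard error 0.26, 95% interval −2.24 to −0.99, limma with Benjamini-Hochberg adjusted p = 0.0418), the largest in size among the 10 members. This call was close to the threshold. Without WT 2, the higher WT sample, the log2 fold change was −1.21 (limma, adjusted p = 0.110), without promoter KO 1 it was −1.58 (adjusted p = 0.167) and without promoter KO 2 it was −1.65 (adjusted p = 0.0590), while without WT 1 it was −2.03 and stayed called (adjusted p = 0.0300). It also lost the call without the filter on low values (adjusted p = 0.146) and without limma's intensity trend (adjusted p = 0.0642).

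Other let-7 targets and oncofetal genes were followed in a list of 33 genes, of which 31 were tested. Limma called 1 lower and 0 higher, and at an unadjusted p under 0.05, 8 were lower (25.8%, against 15.6% of all tested genes) and 6 were higher (19.4%, against 15%). The median log2 fold change was 0.00, as over all tested genes. The gene called was *Arid3b*, a DNA-binding protein of the ARID family, with 68.8 and 72.1 FPKM in WT EBs against 35.9 and 43.9 FPKM in promoter KO EBs. It fell by 0.81 on the log2 scale (limma with Benjamini-Hochberg adjusted p = 0.0377), with both promoter KO samples below both WT samples. This call was lost on leaving out WT 1 (adjusted p = 0.0874), WT 2 (0.200) or promoter KO 1 (0.121), without the filter (0.143) and without the intensity trend (0.0639). *Hmga1*, the paralog of *Hmga2* and the gene of the list with the highest mean over the 4 samples, had 434 and 350 FPKM in WT EBs against 367 and 385 FPKM in promoter KO EBs. Its groups overlapped, and its log2 fold change was −0.05 (95% interval −0.33 to 0.23, limma, adjusted p = 0.780). *Cdc34*, a ubiquitin-conjugating enzyme of the cell cycle, had 298 and 284 FPKM in WT EBs against 404 and 335 FPKM in promoter KO EBs. Its log2 fold change of 0.34 (limma, adjusted p = 0.101) did not pass the test with all 4 samples. It was 0.47 without promoter KO 2 and 0.20 without promoter KO 1. *Arid3b*, *Hmga1* and *Cdc34* each share near-identical sequence with 1 other annotated gene, which makes their values less certain.

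The IGF2BP genes encode RNA-binding proteins of oocyte and embryo that share their KH and RRM domains. *Igf2bp2*, at chr16:22059009-22163299 on the minus strand (GRCm38), was at 34.0 FPKM (WT 1), 37.4 (WT 2), 21.9 (promoter KO 1) and 20.1 (promoter KO 2). Both genotypes were well apart, promoter KO being the lower, and the samples of each were close to each other. The mean fell from 35.7 ± 2.38 FPKM to 20.99 ± 1.26 FPKM (SD, n = 2 each), and the log2 fold change was −0.74 (standard error 0.10, 95% interval −0.99 to −0.49, limma with Benjamini-Hochberg adjusted p = 0.0372). The direction was the same under every setting tried, and the call was not. The adjusted p was 0.0743 without WT 1, 0.199 without WT 2 and 0.122 without promoter KO 1, 0.139 without the filter on low values and 0.0624 without limma's intensity trend.

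*Igf2bp1*, the most abundant of the 3 paralogs, had 63.3 and 59.4 FPKM in WT EBs against 71.5 and 67.6 FPKM in promoter KO EBs. Both promoter KO samples were above both WT samples, by little, and the log2 fold change of 0.18 (95% interval −0.03 to 0.39, limma, adjusted p = 0.213) did not pass the test. In the annotation, the antisense gene *Gm29202* overlaps *Igf2bp1* on the opposite strand. *Igf2bp3* was at 46.1 and 47.3 FPKM (WT), 37.5 FPKM (promoter KO 1) and 47.0 FPKM (promoter KO 2). Promoter KO 2 lay between the WT samples while promoter KO 1 was lower, and the log2 fold change was −0.15 (95% interval −0.45 to 0.15, limma, adjusted p = 0.441); without promoter KO 1 it was 0.01. The values of *Igf2bp3* are uncertain, because it shares sequence with *Malsu1*, a protein-coding gene that overlaps it on the opposite strand and was at 34.2 to 40.2 FPKM, and whether reads were counted by strand is not given in the sources used here.

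As a share of the summed IGF2BP FPKM, *Igf2bp2* made up 23.7% and 26.0% in WT EBs, against 16.7% and 14.9% in promoter KO EBs. *Igf2bp1* made up 44.1% and 41.2% in WT and 54.6% and 50.2% in promoter KO EBs. The groups were separate for both shares, which differed by −9.01 and 9.71 percentage points (exact two-sided permutation test, p = 0.333 for each, the smallest p that 2 samples against 2 allow). The share of *Igf2bp3* overlapped between genotypes, at 32.1% and 32.8% in WT and 28.7% and 34.9% in promoter KO EBs. The sum over the family was 143 and 144 FPKM in WT EBs against 131 and 135 FPKM in promoter KO EBs.

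**Figure D2:**
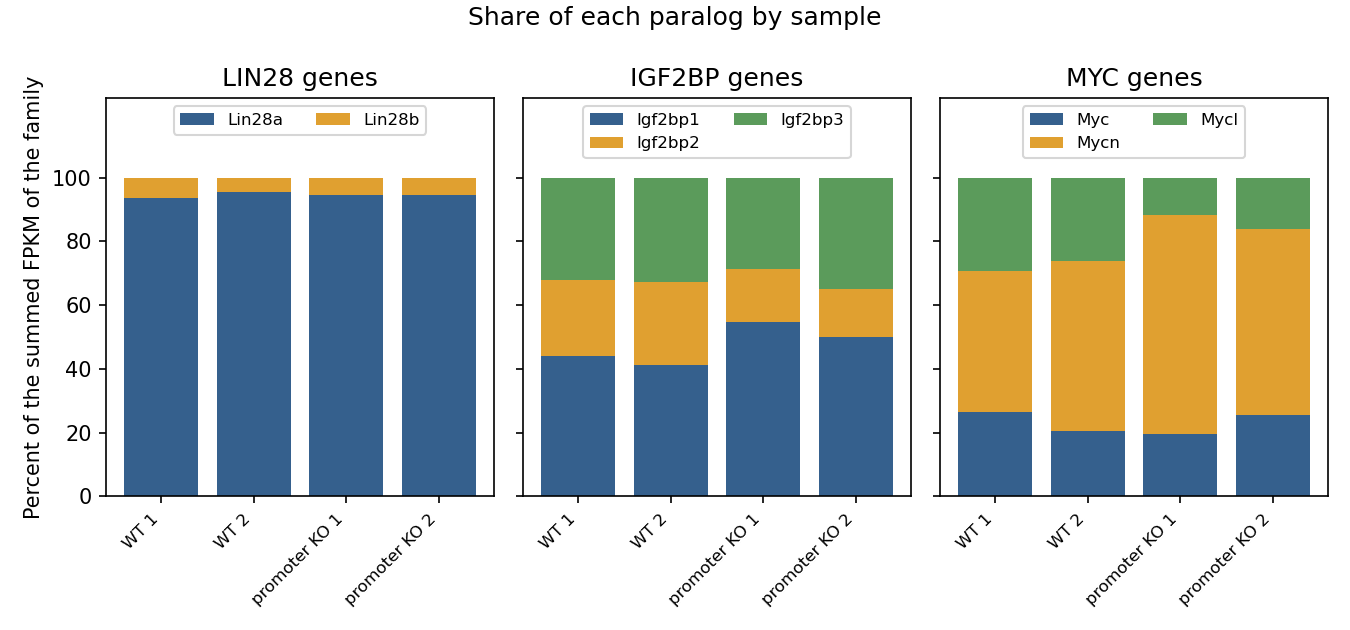
Percent of the summed FPKM of the LIN28, IGF2BP and MYC genes taken by each paralog in each sample, as stacked bars that add up to 100. The bars of *Lin28b* are alike in the 4 samples, those of *Igf2bp2* and *Mycl* are smaller in both promoter KO samples, and that of *Mycn* is larger.

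Of 26 genes of the insulin-like growth factor axis, IGF2BP targets and partners and m6A proteins, 24 were tested, with a median log2 fold change of 0.07 against 0.00 over all tested genes. Limma called 1 lower and 1 higher, and at an unadjusted p under 0.05, 4 were lower and 4 were higher (16.7% each, against 15.6% and 15% of all tested genes). *Igfbp4*, a secreted binding protein of insulin-like growth factors, had 26.0 and 52.5 FPKM in WT EBs against 10.8 and 10.7 FPKM in promoter KO EBs. As with *Hmga2*, the WT samples differed and the promoter KO samples were close to each other and lower (log2 fold change −1.69, standard error 0.30, limma with Benjamini-Hochberg adjusted p = 0.0472). *Syncrip*, an RNA-binding partner of IGF2BP1, had 55.9 and 54.8 FPKM in WT EBs against 75.0 and 75.4 FPKM in promoter KO EBs. It rose by 0.43 on the log2 scale (standard error 0.08, limma, adjusted p = 0.0472), with little spread within either genotype. Both calls were just past the threshold, and both were lost under median centring (adjusted p = 0.0547 for *Igfbp4* and 0.0507 for *Syncrip*), quantile normalization (0.0528 and 0.0544), a minimum mean of 5 FPKM (0.0535 and 0.0525), no filter (0.146 and 0.142) and no intensity trend (0.0677 and 0.0796), and that of *Syncrip* also with a pseudocount of 0.1 (0.0502). *Syncrip* shares near-identical sequence with 2 other annotated genes. For *Igfbp4* the adjusted p was 0.108 without WT 2, 0.183 without promoter KO 1 and 0.0708 without promoter KO 2, and for *Syncrip* it was 0.117 without WT 1, 0.244 without WT 2, 0.167 without promoter KO 1 and 0.0632 without promoter KO 2.

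*Trim71* encodes a ubiquitin ligase and RNA-binding protein that represses mRNAs in stem cells, and its 3′ UTR holds 4 seed matches. It was at 22.2 FPKM (WT 1), 16.7 (WT 2), 25.1 (promoter KO 1) and 22.1 (promoter KO 2). Promoter KO 2 lay just under WT 1, so the groups overlapped, and the log2 fold change of 0.28 (95% interval −0.10 to 0.66, limma, adjusted p = 0.269) did not pass the test. It depended on the WT samples, at 0.09 without WT 2 and 0.47 without WT 1. The protein-coding gene *C130032M10Rik* overlaps it on the opposite strand in the annotation. Of 10 transcripts known to be repressed by TRIM71, 7 were tested, with a median log2 fold change of −0.38 against 0.00 over all tested genes. Limma called 0 lower and 1 higher, and 3 were lower (42.9%, against 15.6% of all tested genes) and 2 higher (28.6%, against 15%) at an unadjusted p under 0.05. *Cdkn1a*, an inhibitor of cyclin-dependent kinases, had 43.8 and 49.5 FPKM in WT EBs against 82.5 and 83.3 FPKM in promoter KO EBs. The promoter KO samples nearly coincided, clearly above the WT samples, and it rose by 0.82 on the log2 scale (standard error 0.09, 95% interval 0.59 to 1.05, limma with Benjamini-Hochberg adjusted p = 0.0280). This call was lost on leaving out WT 1 (adjusted p = 0.0645), WT 2 (0.120) or promoter KO 1 (0.117), without the filter (0.133) and without the intensity trend (0.0563), and 1 other annotated gene shares near-identical sequence with *Cdkn1a*. *Maged1*, a MAGE family protein, had 100.2 and 124 FPKM in WT EBs against 78.5 and 83.4 FPKM in promoter KO EBs (log2 fold change −0.46, limma, adjusted p = 0.0740).

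*Mycn*, the MYC gene with the highest level in these EBs, was at 68.9 FPKM (WT 1), 87.7 (WT 2), 164 (promoter KO 1) and 121 (promoter KO 2). Its WT samples were both lower than its promoter KO samples, and promoter KO 1 was the highest. The mean was 78.3 ± 13.3 FPKM among WT samples and 142 ± 31.0 FPKM among promoter KO samples (SD, n = 2 each), and the log2 fold change was 0.85 (standard error 0.18, 95% interval 0.41 to 1.28, limma with Benjamini-Hochberg adjusted p = 0.0573), just short of the threshold. Without promoter KO 2 the log2 fold change was 1.07 and passed (limma, adjusted p = 0.0397), and without promoter KO 1 it was 0.63 and did not (adjusted p = 0.197).

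*Mycl*, the least abundant of the 3 MYC genes in the promoter KO samples, had 45.5 and 42.6 FPKM in WT EBs against 27.95 and 33.4 FPKM in promoter KO EBs. Its promoter KO samples were both below its WT samples, the opposite order to *Mycn*. The log2 fold change was −0.51 (standard error 0.11, 95% interval −0.79 to −0.23, limma, adjusted p = 0.0614), and it passed only when promoter KO 2 was left out (−0.64, adjusted p = 0.0454). *Myc* had 41.2 and 33.4 FPKM in WT EBs against 47.1 and 52.7 FPKM in promoter KO EBs. Both promoter KO samples were above both WT samples, with a log2 fold change of 0.42 (standard error 0.13, 95% interval 0.11 to 0.73) that missed the threshold (limma, adjusted p = 0.0981, unadjusted p = 0.0168) and whose adjusted p missed it under every setting tried. The log2 fold change of *Myc* was 0.27 without WT 2 and 0.56 without WT 1.

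**Figure D3:**
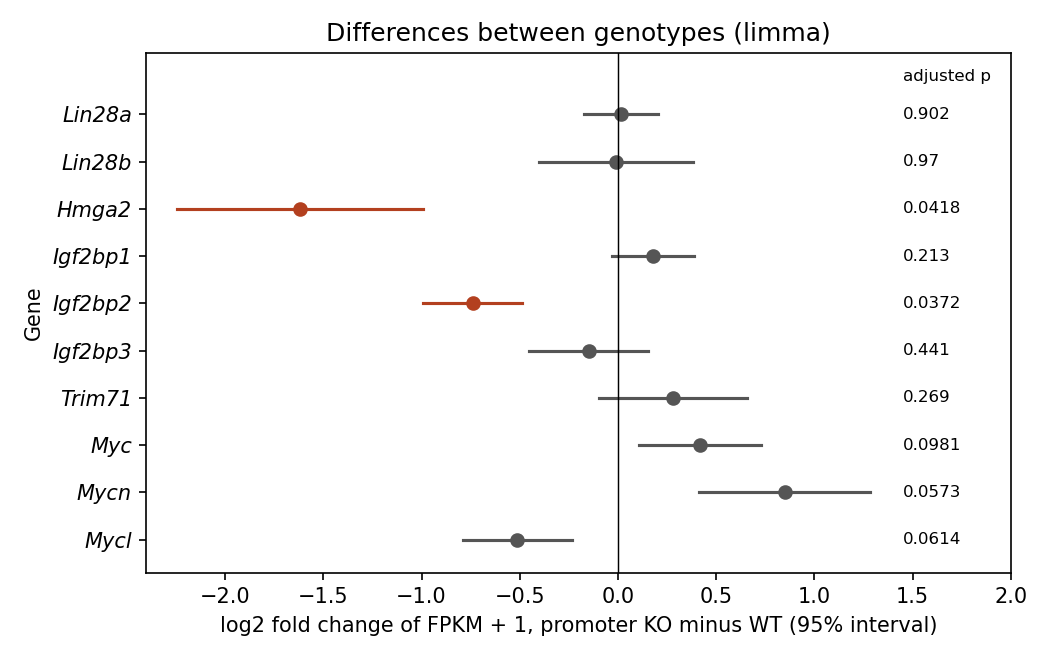
Log2 fold change of FPKM + 1 (promoter KO minus WT) of each member with its 95% interval from limma, and the Benjamini-Hochberg adjusted p at the right. The members called, *Hmga2* and *Igf2bp2*, are in red, and the intervals of *Mycn*, *Mycl* and *Myc* exclude 0 before adjustment.

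Within the MYC family, *Mycn* made up 44.3% and 53.6% of the summed FPKM in WT EBs, against 68.7% and 58.3% in promoter KO EBs. *Mycl* made up 29.2% and 26.0% in WT and 11.7% and 16.2% in promoter KO EBs. The groups were separate for both shares, at differences of 14.6 and −13.7 percentage points (exact two-sided permutation test, p = 0.333 for each, the smallest possible here). With a sample left out, the difference for *Mycn* ranged from 9.41 points (without promoter KO 1) to 19.7 (without promoter KO 2) and that for *Mycl* from −16.0 to −11.5. The share of *Myc* overlapped, at 26.5% and 20.4% in WT and 19.7% and 25.5% in promoter KO EBs (p = 0.667, same exact test). The summed MYC family FPKM was 156 and 164 in WT and 239 and 207 in promoter KO EBs, separate between genotypes.

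MYC proteins act with the partner MAX and are held in check by antagonists and turnover factors, and all 28 listed genes of this kind were tested. Limma called 0 lower and 0 higher at an adjusted p under 0.05, with 3 lower (10.7%, against 15.6% of all tested genes) and 2 higher (7.14%, against 15%) at an unadjusted p under 0.05, and the median log2 fold change was −0.04, against 0.00 over all tested genes. The most abundant were *Ruvbl1* and *Ruvbl2*, ATPases of chromatin complexes that MYC recruits. *Ruvbl2* had 228 and 240 FPKM in WT EBs against 218 and 198 FPKM in promoter KO EBs (log2 fold change −0.17, limma, adjusted p = 0.222). This fold change was −0.10 without promoter KO 2 and −0.24 without promoter KO 1. *Ruvbl1* had 148 and 148 FPKM in WT EBs against 212 and 171 FPKM in promoter KO EBs (log2 fold change 0.36, limma, adjusted p = 0.104). Here the fold change was 0.52 without promoter KO 2 and 0.21 without promoter KO 1. The groups of each gene were separate, in opposite directions, and neither passed the test with all 4 samples. Each shares near-identical sequence with 1 other annotated gene.

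All 46 listed target genes of MYC, mostly of ribosome production and of nucleotide and polyamine synthesis, were tested. Limma called 1 lower and 0 higher at an adjusted p under 0.05. At an unadjusted p under 0.05, 26 genes (56.5%) were higher, against 15% of all tested genes, and 1 was lower. The count higher was chosen after the data were seen, and the list was made with earlier results of these data known. Without limma's intensity trend that count was 18 (39.1%, against 13.9% of all tested genes). In promoter KO both samples exceeded the WT range in 36 genes (78.3%), against 32.9% of all tested genes, and were below it in 3. The median log2 fold change was 0.28, against 0.00 over all tested genes, and it was 0.31 with median centring and 0.24 with quantile normalization. The differences were small per gene, and the count higher at an unadjusted p was 10 (21.7%, against 7.68% of all genes tested then) without WT 2 and 13 (28.3%, against 7.57%) without promoter KO 1. The gene called was lower, *Npm3*, a histone chaperone related to nucleophosmin, with 463 and 390 FPKM in WT EBs against 263 and 285 FPKM in promoter KO EBs (log2 fold change −0.63, limma with Benjamini-Hochberg adjusted p = 0.0433). It was not called without WT 1 (adjusted p = 0.0989), WT 2 (0.136) or promoter KO 1 (0.169), nor without the filter (0.144) or the intensity trend (0.0716). *Npm1*, nucleophosmin itself, had 2337 and 2362 FPKM in WT EBs against 2491 and 2437 FPKM in promoter KO EBs (log2 fold change 0.07, limma, adjusted p = 0.530). *Hspe1*, a mitochondrial chaperonin, had 968 and 920 FPKM in WT EBs against 1124 and 985 FPKM in promoter KO EBs (log2 fold change 0.16, limma, adjusted p = 0.282, and 0.06 on the log2 scale without promoter KO 1). The values of these 3 genes are uncertain, because *Npm1* shares near-identical sequence with 5 other annotated genes, and *Npm3* and *Hspe1* with 1 each.

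**Figure D4:**
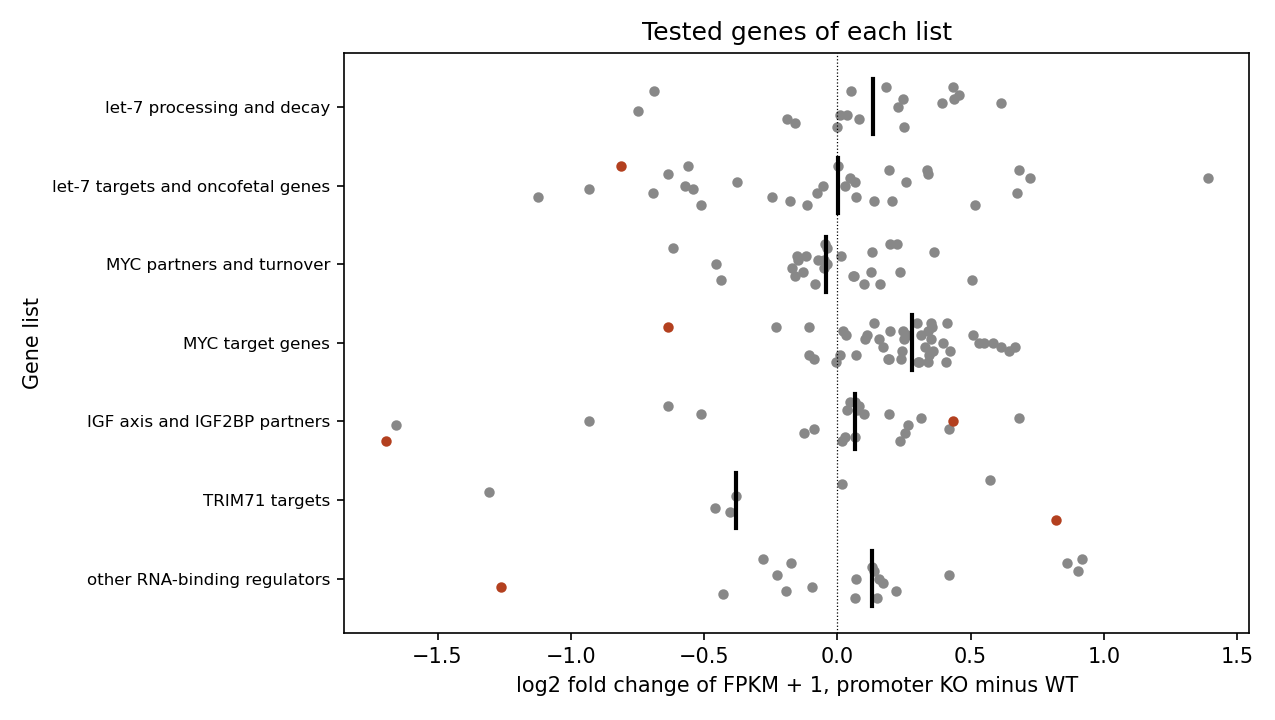
Log2 fold change of FPKM + 1 (promoter KO minus WT) of every tested gene in the 7 gene lists, with genes called at an adjusted p under 0.05 in red and the median of each list as a black bar. Most MYC target genes lie to the right of 0 and 1 gene of that list, to the left, is called, and the other lists spread to both sides.

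The samples differed in cell type markers together with the members, and the part of these markers in the differences of *Hmga2*, *Igf2bp2* and the MYC genes was not tested. The labels describe the cells as mesendoderm derived from ES cells. Over all tested genes, 1.89% were called lower and 1.68% higher, and 15.6% were lower and 15% higher at an unadjusted p under 0.05. Of 8 mesendoderm markers, all 8 were tested, 5 were called lower and 0 higher, and their summed FPKM was 777 and 1002 in WT but 148 and 314 in promoter KO EBs, with *T* the most abundant on average over the 4 samples. Of 8 naive pluripotency markers, 0 were called by limma, 4 were higher at an unadjusted p under 0.05, and the sums were 51.4 and 111 FPKM in WT EBs against 211 and 118 FPKM in promoter KO EBs, with *Klf2* the most abundant. Of 10 markers of primitive and visceral endoderm 9 were tested, 7 were called higher and 0 lower, and the sums were 59.7 and 68.2 FPKM in WT EBs against 169 and 211 FPKM in promoter KO EBs, most of it *Sparc*. The summed FPKM of each of these lists was thus separate between the genotypes, least clearly for the naive list. Of its 8 markers, 4 overlapped between genotypes, *Klf2* among them, and 1 of these had a negative log2 fold change. The other 4 were higher in both promoter KO samples (50%, against 32.9% of all tested genes).

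Of 7 formative epiblast markers, 1 was called lower and 1 higher, where 1.89% and 1.68% of all tested genes were. The sums overlapped between genotypes (818 and 641 FPKM in WT EBs against 783 and 822 FPKM in promoter KO EBs, led by *Dnmt3b*). Of 6 neuroectoderm markers only 2 passed the filter. *Sox3* was called higher, whereas *Nes*, named after its values were seen, had 21.6 and 24.5 FPKM in WT EBs against 6.94 and 14.7 FPKM in promoter KO EBs and a log2 fold change of −1.10 that missed the threshold (limma, adjusted p = 0.0831, unadjusted p = 0.0113). The other 4 stayed under 1 FPKM in all samples and had no test. They were higher in each promoter KO sample than in either WT sample, an order also found in 32.9% of all tested genes. The sums were 58.0 and 53.8 FPKM in WT EBs against 65.1 and 66.2 FPKM in promoter KO EBs, mostly *Sox3*. Of 6 fibroblast markers 4 stayed under 1 FPKM in all samples, *Lum* was at 0, and the sums lay between 10.9 and 17.3 FPKM, mostly *Thy1*. The 6 proliferation markers, led by *Pcna*, summed to 916 and 832 FPKM in WT EBs against 1011 and 909 FPKM in promoter KO EBs, with overlapping groups. Limma called 0 of them, and 1 (16.7%) was higher at an unadjusted p under 0.05, near the 15% of all tested genes.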

How the data were processed

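The values the authors deposited are FPKM of single samples, not pooled. The submitters' processing notes name HISAT2 2.1.0, Cufflinks, Cuffnorm and mm10, whereas the published methods name TopHat, Cufflinks and Cuffdiff and call the unit RPKM, so the aligner is uncertain. Genes are named by symbol, and 27 of 24347 symbols look like dates.

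The 11941 genes reaching 1 FPKM in 2 or more of 4 samples were tested as log2(FPKM + 1) with limma 3.58.1 in R 4.3.3 (lmFit, eBayes with intensity trend, 2 against 2), without further scaling. Adjustment was by Benjamini-Hochberg over all of them. The pseudocount makes fold changes of low genes smaller. Shares of paralogs were compared by exact two-sided permutation over samples. The fit was tested on simulated data. Depth was estimated from the FPKM steps of single-transcript genes, with 200-base fragments. Copies were sought with BLAST 2.17.0 (at least 200 bases at 95% identity). Python 3.11.15, numpy 2.4.6, pandas 2.3.3 and matplotlib 3.10.9 were used.

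The members and gene lists were chosen with earlier results of these data known. Genes named are the members, *Gm11549*, the called genes of each list (at most 4 per direction), and, for a list with fewer than 2 called, its 2 most abundant tested genes; of marker lists, the most abundant gene. Alternatives tried were the replicate number as a block, a pseudocount of 0.1, no filter, a mean of at least 5 FPKM, no intensity trend, median centring, quantile normalization, unadjusted p-values, ratios of means, and each sample left out. The count of MYC target genes at an unadjusted p was chosen after seeing the data.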

Additional observations from a re-analysis of the deposited data

How the results depend on the processing

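Adding the replicate number as a block led limma to call 1202 genes in place of 427 and 3 members in place of 2, the added member being *Mycn* (limma, adjusted p = 0.0466). The named list genes *T* (0.00809), *L1td1* (0.0126), *Nes* (0.0355), *Dppa5a* (0.0362) and *Maged1* (0.0396) were called as well. Over all 11941 tested genes, the block took calls higher from 201 to 535 and calls lower from 226 to 667. In the lists, calls higher went from 0 to 12 among MYC targets, 0 to 3 among other RNA-binding regulators, 1 to 2 in the IGF axis and formative lists, and 0 to 1 among let-7 targets, MYC partners, naive and proliferation markers. Calls lower went from 5 to 7 in mesendoderm, 1 to 3 among let-7 targets, 0 to 2 in let-7 processing, 1 to 2 in the IGF axis, and 0 to 1 among MYC partners, TRIM71 targets and neuroectoderm. The remaining list counts did not change. The numbers 1 and 2 are shared by the genotypes in the labels only. Same-numbered samples deviated from their group means with a correlation of 0.0348 across genes, so no pairing was assumed.

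The number of genes called by limma was 203 with a mean of at least 5 FPKM, 82 without the intensity trend, 283 with median centring and 0 without a filter (4059 of 18215 genes at an unadjusted p under 0.05), and 3649 genes passed an unadjusted p. The number of members called was 0 without a filter and 0 without the trend (5 at an unadjusted p in both), and 5 at an unadjusted p with all settings as reported. The cause of these changes in the counts was not tested. Leaving out each sample in turn, with the lone sample of a genotype assumed to vary like the other genotype, gave 0 to 638 genes, 0 to 3 members, and 10 to 32 MYC target genes higher at an unadjusted p. No gene was called without WT 2 or without promoter KO 1 (1821 and 1942 at an unadjusted p).

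The signs of *Hmga2*, *Igf2bp1*, *Igf2bp2*, *Trim71*, *Myc*, *Mycn* and *Mycl* held under all settings. That of *Lin28a* turned with quantile normalization (−0.0026) and ranged from −0.0352 to 0.0689 with a sample left out, that of *Lin28b* turned with median centring (0.0201) and quantile normalization (0.0159) and ranged from −0.22 to 0.19, that of *Igf2bp3* ranged from −0.31 to 0.0099 and that of *Hmga1* from −0.21 to 0.10. The share of *Lin28a* differed by −0.0093 points and that of *Lin28b* by 0.0093 with quantile normalization. With a sample left out, the share differences ranged from −0.804 to 1.17 points for *Lin28a*, −1.17 to 0.804 for *Lin28b*, −3.87 to 2.17 for *Myc* and −3.82 to 2.43 for *Igf2bp3*. The cause of these turns was not tested. With 2 samples per genotype the intervals are wide, and that of *Trim71* reaches 0.66.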

Other observations

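Other RNA-binding regulators of the epiblast and germ line were examined beside the LIN28 and IGF2BP genes. Of 20 such genes 19 were tested, limma called 1 lower and 0 higher at an adjusted p under 0.05, and at an unadjusted p under 0.05, 3 were lower (15.8%, against 15.6% of all tested genes) and 4 were higher (21.1%, against 15%), with a median log2 fold change of 0.13. *Dnd1*, which guards germ cell mRNAs, had 17.3 and 25.3 FPKM in WT EBs against 7.19 and 9.22 FPKM in promoter KO EBs, and it fell by 1.26 on the log2 scale (limma with Benjamini-Hochberg adjusted p = 0.0433; 0.196 without WT 2, 0.169 without promoter KO 1, 0.146 without the filter and 0.0644 without the intensity trend). *Dppa5a*, a KH-domain protein of pluripotent cells, was at 743 and 792 FPKM (WT), 1833 FPKM (promoter KO 1) and 1146 FPKM (promoter KO 2). *L1td1*, an RNA-binding protein that interacts with LIN28A, had 168 and 116 FPKM in WT EBs against 275 and 236 FPKM in promoter KO EBs. For both genes the promoter KO samples were above the WT samples, and the log2 fold changes of 0.92 and 0.86 missed the threshold (limma, adjusted p = 0.0640 and 0.0569). The log2 fold change of *Dppa5a* was 1.26 without promoter KO 2 and 0.58 without promoter KO 1. That of *L1td1* was 1.13 without WT 1 and 0.60 without WT 2. *Dppa5a* shares near-identical sequence with 7 other annotated genes, so its values are uncertain.

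The tested protein-coding genes with an annotated 3′ UTR, other than the members, were also grouped by the number of let-7 seed matches in the longest one, as a description chosen after the data were seen. Of 141 genes with at least 2 matches, limma called 0 lower and 0 higher, and at an unadjusted p under 0.05, 16 were lower (11.3%) and 21 were higher (14.9%). Of 1044 genes with 1 match, 18 were called lower and 14 higher (16.1% and 14.5% at an unadjusted p), and of 10019 genes with 0 matches, 195 were called lower and 169 higher (15.8% and 15% at an unadjusted p). With the replicate number as a block, 7 were called lower and 4 higher among genes with at least 2 matches. The block gave 61 and 31 with 1 match, and 568 and 456 with 0 matches. The median log2 fold changes were 0.00, 0.02 and 0.00 in that order, and the differences between the groups were not tested. Their median 3′ UTRs differed in length, at 3669, 2130.5 and 1042 bases.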
